A study of Danio rerio with 20 samples.

Results

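Transcripts of the ventricular apex were compared between hearts at 1.5 dpci (days post cryoinjury) and non-injured hearts of zebrafish. The comparison was formed from the labels and took 8 of the 20 libraries of the study, 4 at 1.5 dpci and 4 without cryoinjury, while the other libraries came from 3, 7 and 14 dpci. All 8 are labelled heart tissue of WT genotype. Each library is a pool of 3 to 4 apexes, and adult fish of both sexes were used. The control carried no injury of any kind, so that opening the chest and freezing the apex cannot be told apart here. Nothing in the sources used here states that fish of one library were kept, injured or dissected apart from those of another, and p-values measure the spread between pools.

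Zebrafish rebuild ventricular muscle after cryoinjury, a procedure in which a cold probe kills the cells of the apex. In the first days the wound is known to hold dying cells, a fibrin clot and invading inflammatory cells, while endocardium and epicardium around it become activated and cardiomyocyte division follows later. The comparison at 1.5 dpci asks how far the RNA of the whole apex had changed at this early stage. An apex is a mixture of cell types, so that fewer cells of a type and less RNA per cell cannot be told apart in these libraries.

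Each row of the deposited table is a locus assembled from the reads, with a number such as XLOC_027281. Its value is the number of reads counted on the locus divided by a size factor for the library, and was not divided by length, so that values of one locus can be compared between libraries but levels of different loci cannot be compared as amounts of RNA. The column of gene names stands in another order than the values and was not used here. For this reason loci are given by number, without a gene, a chromosome position or a function, and cell type markers were not checked. The libraries held 19349171 to 32939802 recovered reads at 1.5 dpci and 24371179 to 26742999 without injury. Of the 66128 loci, 62594 had a value above 0 in at least 1 of the 20 libraries and were tested, and 1052 of these were at 0 in all 8 libraries compared.

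Earlier results on these data divided the non-injured libraries into replicates 1 and 2 on one side and replicates 3 and 4 on the other, a division that the labels do not give. Changes were therefore required to pass the test against all 4 controls, against replicates 1 and 2 alone and against replicates 3 and 4 alone, each time with a limma adjusted p below 0.05 and the same sign. A locus that met all 3 conditions is called held here. Libraries within a group correlated at 0.946 to 0.956 at 1.5 dpci and 0.907 to 0.973 without injury (Pearson's r of log2 values across loci whose mean reached 100, a description), and libraries of different groups at 0.777 to 0.853. Among the controls, replicates 3 and 4 correlated at 0.973 and replicates 1 and 2 at 0.917. Controls of different pairs correlated at 0.907 to 0.922, so that by this measure replicates 1 and 2 did not stand out as a pair. Across these 16055 loci the median SD between replicates on the log2 scale was 0.21 at 1.5 dpci and 0.25 in non-injured apexes. Single loci differed in how the controls divided. XLOC_027532 had 3373, 2797, 1.11 and 0 in non-injured replicates 1 to 4, and XLOC_034157 had 0, 382, 202 and 0. Both were picked after values were seen.

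At 1.5 dpci, 8012 loci were higher than in non-injured apexes (12.8% of all tested) and 6338 were lower (10.1%) with all 4 controls (limma on log2(value + 1), Benjamini-Hochberg adjusted p below 0.05). Of the 8012 higher loci, 3442 were held, which is 43.0% of them and 5.5% of all loci tested. Of the 6338 lower loci, 2947 were held, which is 46.5% of them and 4.71% of all loci tested. The 4 values at 1.5 dpci lay entirely above the 4 control values in 3357 of the held rises and entirely below them in 2872 of the held falls, 97.5% of each. Held loci were chosen by a contrast of these same libraries, so this separation is a description and no support for the calls. Over all loci tested, groups did not overlap with 1.5 dpci higher in 8178 loci (13.1%) and with 1.5 dpci lower in 6163 (9.85%). Leaving out any 1 non-injured library leaves 1 library in its pair, and the held counts fell in each case. They fell most without non-injured replicate 1 and least without non-injured replicate 2, so the loss depended on which control was left out. Some held loci have consecutive numbers, and whether each locus is a separate gene was not tested.

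These counts depend on the scale on which libraries are set side by side. The deposited values sum to less at 1.5 dpci than in non-injured libraries. When each library was divided by its own sum instead, an alternative chosen after seeing the data, 14488 loci were higher and 3532 lower, and 6836 higher and 1567 lower loci were held. Higher loci then made up 80.4% of the calls, against 55.8% on the deposited scale, and the median log2 fold change over all loci was 0.38, against 0.09. On the sum scale all 3442 held rises were held again, as were 1567 of the 2947 held falls. Dividing by the lower sums raises the 1.5 dpci libraries against the controls. Rises could thus hardly be lost on this scale, and their return is no support for them over the falls. The values that follow are on the deposited scale unless stated otherwise, and are to be read relative to its median of 0.09.

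Over all abundances together, held rises were larger in fold and held falls were more abundant. The median log2 fold change of the held rises was 1.96, with the middle 50% of loci between 1.30 and 2.60. The median of the held falls was -1.32, with the middle 50% between -1.91 and -0.95. A log2 fold change of at least 3 was reached by 511 held rises, and a fall of at least 3 by 171 held falls. In the other direction, 485 held rises and 846 held falls changed by less than 1 on the log2 scale. The median of the mean values over the 8 libraries was 62.0 for held rises, 569.6 for held falls and 11.6 for all loci tested. Within classes of mean value the 2 directions were closer in fold. The median log2 fold changes were 2.42 and -2.50 at means of 1 to 10, and 2.10 and -2.01 at 10 to 100. They were 1.41 and -1.18 at 100 to 1000, 1.04 and -1.12 at 1000 to 10000, and 1.47 and -1.21 at 10000 and over. These medians describe loci that had passed the test and are no separate test of the 2 directions.

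**Figure D1:**
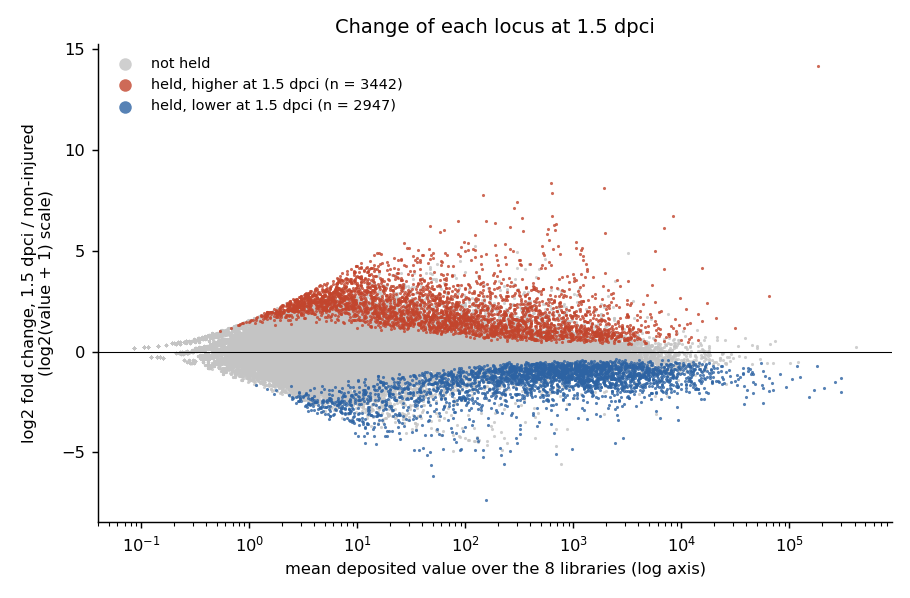
Log2 fold change of 1.5 dpci over non-injured apexes (vertical axis, log2(value + 1) scale) against the mean deposited value over the 8 libraries (horizontal log axis), 1 point per locus tested. The 3442 held rises (red) spread over lower values with a median of 62.0, and the 2947 held falls (blue) over higher values with a median of 569.6; the single red point at the upper right is XLOC_028312.

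The direction of change followed the abundance of a locus. Of the 303 loci whose mean value was 10000 or more, 161 were held falls (53.1%) and 16 were held rises (5.28%). Among the 4444 loci with means of 1000 to 10000, 993 were held falls (22.3%) and 406 held rises (9.14%). At means of 100 to 1000 the shares were close to each other, at 9.48% held falls and 9.10% held rises of 11308 loci. At means of 10 to 100 the order was turned, with 3.19% held falls and 7.20% held rises of 16716 loci, and at means of 1 to 10 it was 0.813% and 3.36% of 23123 loci. Among the 6700 loci with means under 1, where few reads limit what can be called, 9 were held rises.

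The excess of falls among abundant loci was smaller on 2 of 3 other scales. In the class of at least 10000 the median log2 fold change was -0.74 on the deposited scale and -0.76 after rescaling by TMM factors, with 161 and 162 held falls. After division by the sum of values it was -0.35, with 105 held falls and 36 held rises. After quantile normalization, which forces the same distribution of values on every library, it was -0.13, with 69 held falls and 46 held rises. Falls thus outnumbered rises in this class on all 4 scales. In the class of 1000 to 10000 division by the sum turned the order, with 557 held falls and 1038 held rises, and quantile normalization gave 731 and 689.

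**Figure D2:**
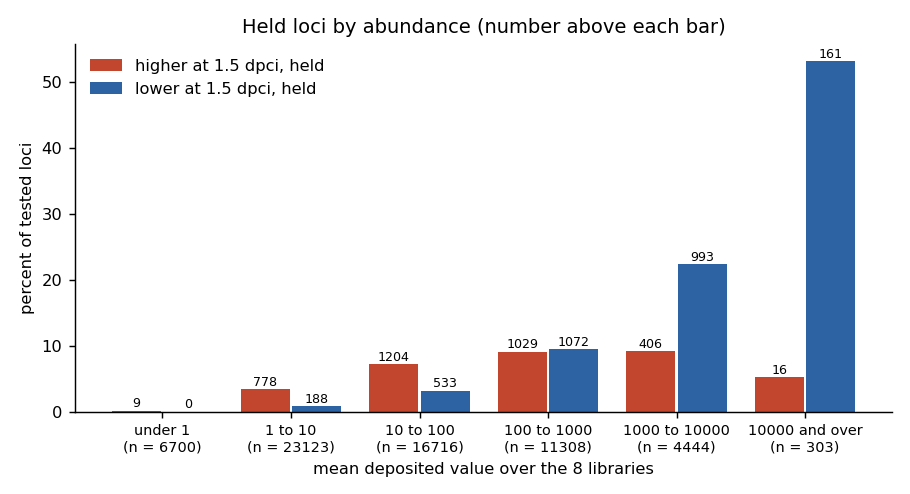
Share of the tested loci in each class of mean deposited value that were held rises (red) or held falls (blue) at 1.5 dpci on the deposited scale, with the number of loci above each bar. Held rises led below a mean of 100, and held falls reached 53.1% of the 303 loci with a mean of at least 10000.

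Both classes of held loci took a changed share of each library. Held rises together made up 13.7%, 13.4%, 11.0% and 13.5% of the values in 1.5 dpci replicates 1 to 4, against 2.92%, 4.13%, 3.14% and 3.18% in non-injured replicates 1 to 4. These held rises include XLOC_028312, with 485107, 480004, 0 and 518751 in 1.5 dpci replicates 1 to 4. With the locus included, held rises summed to 2919170, 2948400, 2480230 and 2995250 in these libraries. The lower share of replicate 3 thus contains this doubtful 0, and the shares of replicates 1, 2 and 4 contain the high values of the locus. Shares without the locus were not computed. Held falls together made up 22.5%, 23.2%, 25.0% and 22.9% at 1.5 dpci, against 47.8%, 39.1%, 45.3% and 44.3% without injury. These loci were chosen by the same contrast, so the shares are a description of their size. Non-injured replicate 2 stood nearest to the injured group, being the highest of the 4 controls in 41.3% of held rises and the lowest in 59.4% of held falls. Among the injured libraries, replicate 3 was the lowest in 33.6% of held rises and the highest in 36.8% of held falls.

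The sum of the deposited values over all loci was 21978200 ± 466035 at 1.5 dpci and 28779300 ± 2582720 in non-injured apexes (SD, n = 4 each). The 4 sums at 1.5 dpci, from 21364710 to 22480209, lay below all 4 control sums, from 24984991 to 30779426. The difference of -6801160 had an exact permutation p of 0.0286 (two-sided), the smallest that 4 against 4 libraries can give, and 0.0286 after adjustment over the 2 library measures compared. The 10 loci with the highest mean over the 8 libraries held 7.59% ± 1.06 of the sum at 1.5 dpci and 10.1% ± 1.10 in non-injured apexes (SD, n = 4 each), a difference of -2.52 percentage points with the same exact permutation p of 0.0286. These 10 include XLOC_028312, whose zeros are given with its values, and without it the difference was -4.12 percentage points. The 10 loci were picked by their values in the same 8 libraries, so the p of their share is no independent test. Dividing by a size factor set from the median locus does not fix the sum of a library, and a lower sum is a statement about abundant loci relative to the median locus, not about the amount of RNA in an apex.

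Few loci carried most of the lower sum. Loci with a lower mean at 1.5 dpci fell by 10228400 in value together, a decrease of which the 171 largest contributors gave 50% and the 1122 largest 80%. Held falls carried 74.4% of this decrease. Loci with a higher mean gained 3427290, of which the 326 largest contributors gave 50%. Held rises carried 55.0% of the increase, or 49.5% without XLOC_028312. Held loci were chosen by the same contrast, so their parts are a description. How many loci carry 50% or 80% of the summed values themselves was not computed.

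The largest falls in value were in 5 loci among the most abundant of the table. XLOC_062480 had values of 115941, 111096, 119415 and 124307 in 1.5 dpci replicates 1 to 4, against 578869, 287582, 521823 and 536551 in non-injured replicates 1 to 4. Its mean was 4.09-fold lower at 1.5 dpci (log2 fold change -1.98 ± 0.19 SE, limma adjusted p = 5.9e-07), and the injured libraries lay within a narrow band under every control. XLOC_017979 had 37592, 54616, 55613 and 63986 at 1.5 dpci, against 337552, 206775, 237283 and 227464, with a log2 fold change of -2.25 ± 0.22 (limma adjusted p = 9.6e-07). In XLOC_013344 the values were 85582, 84457, 97941 and 104339 at 1.5 dpci, against 451014, 281953, 296658 and 275688, with a log2 fold change of -1.78 ± 0.16 (limma adjusted p = 1.1e-07). These 5 loci were picked among held loci without overlap between the groups, so their separation is no support for the calls. After quantile normalization XLOC_062480 and XLOC_017979 were still lower, by log2 fold changes of -1.20 and -1.21, and XLOC_013344 by -0.60.

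The other 2 of these abundant loci held less firmly. XLOC_020821 had 168183, 162217, 191095 and 156836 at 1.5 dpci, against 505415, 294201, 439609 and 471479 in non-injured libraries (log2 fold change -1.31 ± 0.17 SE, limma adjusted p = 1.9e-05). XLOC_001274 had 114112, 127447, 169201 and 128328 at 1.5 dpci, against 468238, 228945, 438724 and 423889 (log2 fold change -1.50 ± 0.28 SE, limma adjusted p = 0.00073). Non-injured replicate 2 was the lowest control in both loci. After quantile normalization neither passed the test, at a log2 fold change of -0.47 for XLOC_020821 (limma adjusted p = 0.067) and -0.16 for XLOC_001274 (limma adjusted p = 0.72), the highest adjusted p of each locus over the alternatives run. All 5 loci had mean values of 214191 to 303666 at 7 dpci, above those at 1.5 dpci.

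Not every abundant locus was lower. XLOC_013759, the locus with the highest mean of all, had 430757, 551587, 415968 and 396693 at 1.5 dpci, against 337379, 385715, 384809 and 424256 without injury. The groups overlapped and the log2 fold change of 0.22 ± 0.13 did not pass the test (limma adjusted p = 0.22). XLOC_012173 averaged 74257 ± 10629 at 1.5 dpci and 57661 ± 3802 in non-injured apexes (SD, n = 4 each; limma adjusted p = 0.067), and XLOC_003582 averaged 55282 ± 10711 and 44589 ± 4265 (limma adjusted p = 0.20). On the sum scale all 3 were higher at 1.5 dpci, by log2 fold changes of 0.61, 0.74 and 0.68 with limma adjusted p of 0.013, 0.00020 and 0.00099.

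The largest rises in value among held loci without overlap between the groups were in 5 loci, a limit that leaves out XLOC_028312. XLOC_064281 had 27847, 19939, 35439 and 32682 at 1.5 dpci, against 3032, 2401, 1070.3 and 856 in non-injured libraries, a 15.8-fold higher mean (log2 fold change 4.14 ± 0.40 SE, limma adjusted p = 1.5e-06). XLOC_037039 had 30244, 31923, 33346 and 31981, against 10163, 8749, 9977 and 11339, a 3.17-fold higher mean (log2 fold change 1.67 ± 0.14 SE, limma adjusted p = 8.7e-08). Replicates of XLOC_037039 were close in both groups, with SDs of 3.98% of the mean at 1.5 dpci and 10.5% without injury. XLOC_001701 averaged 43130.2 ± 8125 at 1.5 dpci and 19125 ± 4179 in non-injured apexes (SD, n = 4 each), a log2 fold change of 1.18 (limma adjusted p = 0.0019).

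Replicates differed more in the remaining 2 of these loci. XLOC_024925 had 48094, 31058, 13165 and 25089.6 at 1.5 dpci, against 3023, 6758, 6345 and 4439, with the lowest injured value 1.5 dpci replicate 3 (log2 fold change 2.44 ± 0.47 SE, limma adjusted p = 0.0012). XLOC_047773 had 80469, 194498, 98299 and 50582 at 1.5 dpci, against 2182, 40109, 33725 and 12550.5. By the rule of choice its groups did not overlap, but the values spread widely within each. The log2 fold change of 2.76 ± 0.75 (limma adjusted p = 0.013) no longer passed when only the 8 libraries were fitted (limma adjusted p = 0.063) or when recovered reads were tested with edgeR's quasi-likelihood test (adjusted p = 0.054).

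The largest held rises in fold, among loci with a mean of at least 100 and no overlap, went to loci that were nearly silent in the non-injured apex. XLOC_025414 had 827, 1237, 1249 and 1685 at 1.5 dpci, against 3.79, 6.91, 3.32 and 3.59, a 284-fold higher mean (log2 fold change 7.86 ± 0.43 SE, limma adjusted p = 2.3e-10). XLOC_061460 had 379, 416, 718 and 709 at 1.5 dpci, against 2.53, 4.94, 1.11 and 3.59 (log2 fold change 7.14 ± 0.54 SE, limma adjusted p = 1.5e-08). The lowest injured value of each locus was far above its highest control value.

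XLOC_012057 had 311, 248, 315 and 275 at 1.5 dpci, against 0, 1.98, 0 and 0, and the controls held 2 reads in all. With these 2 reads taken at the average value of a read in the controls, the injured mean was 505 times the non-injured level, with a counting interval of 140 to 4167 (95%, exact Poisson for the 2 reads, counting error only). XLOC_016809 had 1259, 231, 562 and 341 at 1.5 dpci, against 2.53, 0, 2.22 and 4.79 (log2 fold change 7.42 ± 1.33 SE, limma adjusted p = 0.00067). Its neighbour by number, XLOC_016808, had the same order of injured libraries, with 7148, 1918, 4253 and 2015 against 18.9, 7.90, 9.97 and 9.58. XLOC_048615 reached 935 to 1369 at 1.5 dpci, against 13.9, 10.9, 0 and 0 in non-injured replicates 1 to 4. Its log2 fold change was 6.51 against replicates 1 and 2 and 10.2 against replicates 3 and 4.

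**Figure D3:**
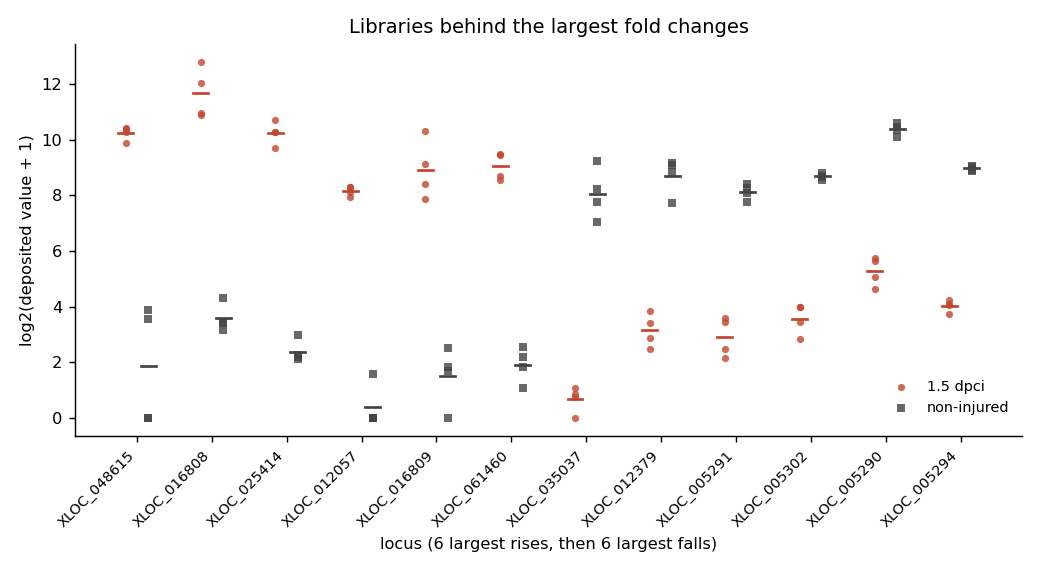
Deposited values in each library, as log2(value + 1), for the 6 largest held rises and the 6 largest held falls by fold among loci with a mean of at least 100 and no overlap, with 1.5 dpci as red circles, non-injured apexes as grey squares and the mean of each 4 as a bar. Every rise left the range of the controls by several log2 units, and 4 of the 6 falls have numbers between XLOC_005290 and XLOC_005302.

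Of the 6 largest falls in fold, 4 lie close together by number. XLOC_005290 had 49.3, 32.9, 23.9 and 52.8 at 1.5 dpci, against 1547, 1295, 1417 and 1094 in non-injured libraries (log2 fold change -5.09 ± 0.29 SE, limma adjusted p = 3.4e-10). XLOC_005294 had 15.5, 18.1, 12.3 and 15.9, against 520.3, 527, 472 and 487, a mean 32.4-fold lower at 1.5 dpci. Loci of this list were picked for having no overlap, so the gap between the groups is a description. XLOC_005291 averaged 7.24 ± 3.82 at 1.5 dpci and 284 ± 51.3 without injury, and XLOC_005302 averaged 11.5 ± 4.25 and 411 ± 27.0 (SD, n = 4 each).

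The other 2 of these falls were XLOC_012379 and XLOC_035037. XLOC_012379 had 6.39, 4.54, 9.55 and 13.4 at 1.5 dpci, against 551, 212, 578 and 457 in non-injured libraries. XLOC_035037 held 3 reads in all 4 injured libraries together, against values of 297, 602, 214 and 132. With these 3 reads taken at the average value of a read in the injured libraries, the non-injured mean was 465 times the injured level, with a counting interval of 159 to 2255 (95%, exact Poisson, counting error only), and its limma adjusted p was 0.0011. Its mean was 511 ± 156 at 7 dpci and 127 ± 107 at 14 dpci (SD, n = 4 each), so that the locus was not low at all stages after injury.

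The moderated statistic sets the change against its spread, so loci picked by it have a large change for their spread by choice. XLOC_027281 had 1465, 1411, 1527 and 1394 at 1.5 dpci, against 45.5, 43.5, 60.9 and 49.1, a 29.1-fold higher mean (log2 fold change 4.85 ± 0.22 SE, limma adjusted p = 5.8e-11). XLOC_039809 had 2180.1, 2475, 2492 and 2352, against 94.7, 98.8, 93.1 and 115, a 23.7-fold higher mean. XLOC_029705 had 4158, 3925, 3036 and 3714, against 311, 321, 182 and 192, a 14.8-fold higher mean. In the last of these the controls divided into a higher pair, replicates 1 and 2, and a lower pair, replicates 3 and 4, yet the rise was 3.54 against the first pair and 4.30 against the second on the log2 scale.

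Among the falls with the largest statistic, XLOC_028880 had 74.9, 86.2, 73.7 and 65.4 at 1.5 dpci, against 1329, 972, 1464 and 1216 without injury, a mean 16.6-fold lower (log2 fold change -4.03 ± 0.20 SE, limma adjusted p = 1.3e-10). XLOC_060896 had 1587, 1654, 986 and 1249, against 8952, 9956, 11487 and 10596, a mean 7.48-fold lower. XLOC_042516 had 203, 163, 143 and 180.3, against 1173, 983, 1117 and 1022, a mean 6.23-fold lower. In all 3 loci the injured values were a small part of every control value.

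At 14 dpci the means of these 6 loci were nearer to the non-injured means than at 1.5 dpci. XLOC_027281 averaged 763 at 3 dpci, 103 at 7 dpci and 68.0 at 14 dpci, with 49.7 in non-injured apexes. XLOC_039809 was higher at 3 dpci than at 1.5 dpci in its mean, with 3007 ± 172 and 2375 ± 144 (SD, n = 4 each; not tested), and averaged 425 at 7 dpci. XLOC_028880 averaged 379 at 3 dpci, 584 at 7 dpci and 1036 at 14 dpci, with 1245 in non-injured apexes. These means are given as a description and the stages were not compared by a test here.

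Loci listed at 0 in one group were held in both directions. Of the held rises, 255 were at 0 in all 4 non-injured libraries (7.41%), and of the held falls 24 were at 0 in all 4 libraries at 1.5 dpci (0.814%). The share of such zeros over all loci tested was not computed. Held rises also had lower values, with a median mean of 62.0 against 569.6 for held falls, so the 2 numbers do not compare the directions. XLOC_012949 had 37.4, 82.8, 44.4 and 213 at 1.5 dpci, a mean at least 27.6-fold higher than the floor of 3 reads per non-injured library. XLOC_004312 had 162, 35.2, 25.3 and 8.39, at least 16.9-fold higher on the same basis, and its 4 injured values spread over a wide range. Of the falls, XLOC_036151 was at 0 in the injured libraries, against 24.0, 63.2, 23.3 and 7.18, which is at least 11.0-fold lower by the floor of 3 reads per injured library. XLOC_019179 and XLOC_013131 were at least 8.77-fold and 8.55-fold lower, with values in non-injured libraries of 15.5 to 37.5 and 4.79 to 37.9.

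XLOC_028312 met the rule for held rises but its zeros cannot be taken at face value. It had 485107, 480004, 0 and 518751 in 1.5 dpci replicates 1 to 4, and was listed at 0 in all 4 non-injured libraries. It was also listed at 0 in every library at 7 and 14 dpci and had 436980 to 585424 at 3 dpci. A value of 0 beside values of 480004 and more in the same group may be a failed estimate, and whether it is was not tested, so no fold change is given. Its limma adjusted p was 0.0024 with all 20 libraries, 0.072 in the fit of only the 8 libraries and 0.63 by limma-voom on recovered reads. The locus alone made up 10.8% of the gross increase in value at 1.5 dpci. In all, 12 tested loci had a value of at least 1000 in 1 of the 8 libraries and 0 in another, of which XLOC_028312, XLOC_034157, XLOC_048615 and XLOC_016809 were held. These 12 were counted after values were seen. XLOC_034157 had 1424, 1349, 1585 and 494 at 1.5 dpci, against 0, 382, 202 and 0.

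The requirement that a change hold against each control pair removed 7961 of the called loci, 55.5% of them. Of the higher loci, 1983 failed only against replicates 1 and 2, 1350 only against replicates 3 and 4, and 1237 against both. Of the lower loci the numbers were 1590, 1053 and 748. In 13 of the lower loci the fold change against one pair had the opposite sign. A fit with 2 controls has fewer samples than one with 4, and a locus that failed is not shown to be unchanged.

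**Figure D4:**
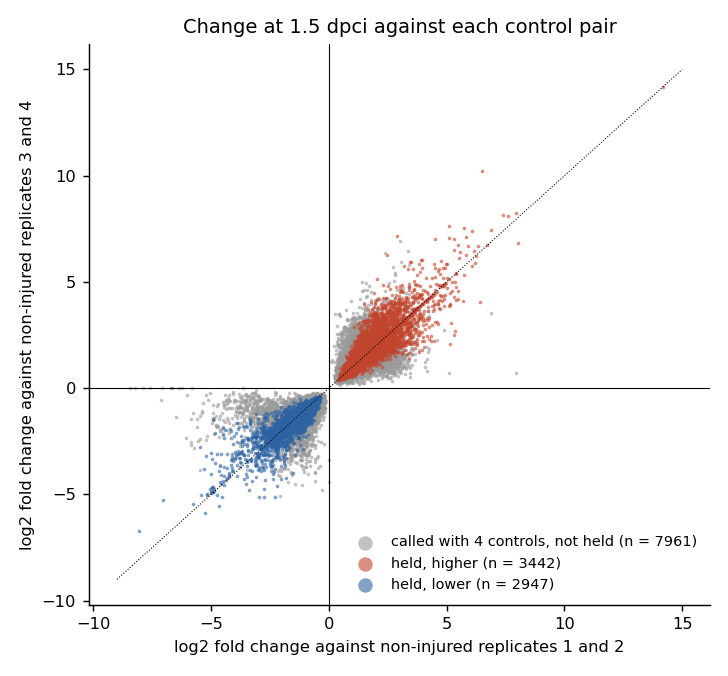
Log2 fold change at 1.5 dpci against non-injured replicates 1 and 2 alone (horizontal axis) and against replicates 3 and 4 alone (vertical axis) for the loci called with 4 controls, with held rises in red, held falls in blue, the 7961 loci that did not hold in grey and equal change as a dotted line. Held loci lie in the quadrants of equal sign by the rule that chose them, and grey points far from the line changed against one pair much more than against the other.

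In 3 of the 4 loci named for failing against one pair only, that pair held 1 control far above the other 3. XLOC_026159 had 7119, 3379, 5937 and 4759 at 1.5 dpci, against 61.9, 3948, 93.1 and 34.7, where replicate 2 alone reached the injured range and the rise failed against replicates 1 and 2 (limma adjusted p = 0.22). Even with all 4 controls its call was lost when any of 5 of the 8 libraries was left out, with limma adjusted p between 0.051 and 0.075, and by edgeR (adjusted p = 0.22). XLOC_018882 had 866, 297, 418 and 580.3, against 15.2, 237, 1.11 and 7.18, again with replicate 2 the highest control, and its call with 4 controls was lost by edgeR (adjusted p = 0.073). XLOC_006380 had 348, 204, 47.1 and 300.2, against 1.26, 0, 68.7 and 2.39, where replicate 3 stood above the lowest injured value and the rise failed against replicates 3 and 4 (limma adjusted p = 0.094). The fall of XLOC_062385, with 126, 22.7, 0 and 189 at 1.5 dpci against 368, 4014, 505 and 321, failed against replicates 3 and 4 (limma adjusted p = 0.092), although the groups did not overlap, and with 4 controls it did not pass in the fit of only the 8 libraries (limma adjusted p = 0.082) or by limma-voom (adjusted p = 0.053).

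The held loci nearest to the threshold, among those with a mean of at least 100, were 2 rises and 2 falls. XLOC_025011 averaged 2804 ± 275 at 1.5 dpci and 1939 ± 133 without injury, a 1.45-fold higher mean, and its largest limma adjusted p over the 3 fits was 0.0498. XLOC_059860 averaged 420.0 ± 42.5 and 191 ± 45.2, with 0.0499. The falls XLOC_029013, with 111 ± 13.5 at 1.5 dpci and 212 ± 44.2 without injury, and XLOC_043566, with 557 ± 65.9 and 806 ± 59.2, passed at limma adjusted p of 0.0499 and 0.0498. Just outside, XLOC_060860 averaged 86.8 ± 31.0 at 1.5 dpci and 165 ± 34.1 without injury, and XLOC_001220 averaged 776 ± 95.5 and 1349 ± 286 (SD, n = 4 each throughout), both with 0.0501 against replicates 1 and 2. On the sum scale the fit with 4 controls no longer called XLOC_029013, XLOC_043566, XLOC_060860 or XLOC_001220.

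Held loci clustered by number. The locus with the next number was also a held rise for 966 of 3390 held rises whose next number was tested (28.5%), while held rises were 5.5% of all loci tested. For held falls it was 495 of 2899 (17.1%), while held falls were 4.71% of all. A next locus held in the opposite direction was found in 2.83% and 3.04%. The 3442 held rises thus formed 1956 single loci and 520 runs of 2 or more consecutive numbers, and the 2947 held falls 2134 single loci and 318 runs. Runs of 10 or more numbered 10 among the rises and 5 among the falls. Whether loci of a run lie side by side in the genome or are pieces of one transcript was not tested.

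The longest run of falls reached from XLOC_005283 to XLOC_005303. Its 21 loci summed to 202, 155, 102 and 187 at 1.5 dpci, against 5364, 4973, 5003 and 4184 in non-injured libraries, and XLOC_005290 alone made up 1338 of the non-injured mean of 4881. Every locus of a run was chosen as held in that direction, so the sums describe the run's size. Log2 fold changes within it ran from -5.60 to -2.66 with a median of -4.82, and it holds 4 of the 6 largest falls in fold. The sum averaged 1066 ± 166 at 3 dpci, 2318 ± 1199 at 7 dpci and 2843 ± 432 at 14 dpci (SD, n = 4 each), as a description. Of the run's loci, 8 had a mean of at least 100. The run from XLOC_057378 to XLOC_057392 had higher values, and its 15 loci summed to 3017 ± 423 at 1.5 dpci and 12389 ± 1724 in non-injured apexes.

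The longest run of rises reached from XLOC_052357 to XLOC_052381. Its 25 loci summed to 481, 475, 138 and 606 at 1.5 dpci, against 1.26, 2.96, 2.22 and 2.39 in non-injured libraries. In this run 20 loci were at 0 in all 4 controls. None of the 25 had a mean of at least 100, and their means at 1.5 dpci were low, from 4.41 to 72.4. The third injured library was the lowest, and the sum averaged 134 ± 54.2 at 3 dpci and 21.6 ± 12.1 at 14 dpci. The 22 loci from XLOC_051607 to XLOC_051628 summed to 2446 ± 665 at 1.5 dpci and 427 ± 172 in non-injured apexes, of which XLOC_051607 alone made up 1128 and 251. The 18 loci from XLOC_043465 to XLOC_043482 summed to 10172 ± 503 and 5474 ± 1093 (SD, n = 4 each throughout). Most of the latter sums lay in XLOC_043465, with means of 7800 and 4712. Its log2 fold change of 0.75 was the lowest of its run, whose median was 2.06. These runs were chosen after the values were seen and were not tested as units.

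**Figure D5:**
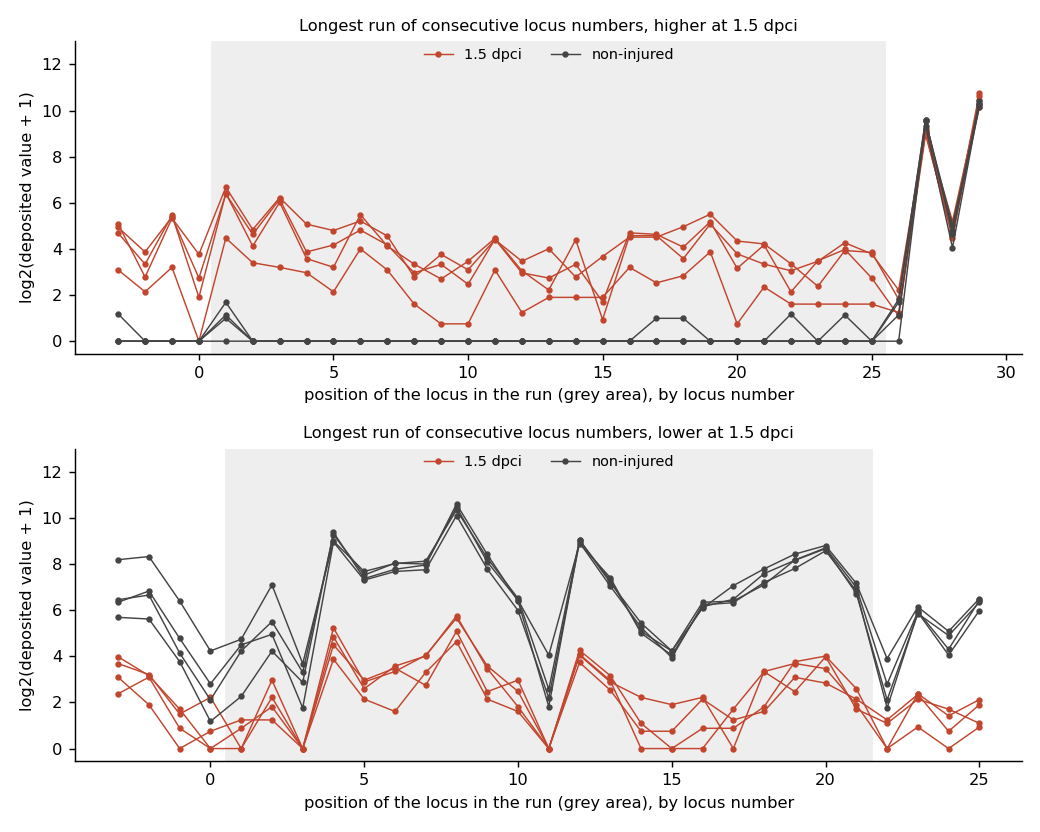
Deposited values in each library, as log2(value + 1), by locus number along the longest run of held rises (upper panel, 25 loci in the grey area) and of held falls (lower panel, 21 loci), with 4 further loci on either side, 1.5 dpci in red and non-injured apexes in dark grey. In the upper panel the controls lie at or near 0 along the run, and in the lower panel all injured libraries lie under all controls at most positions.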

How the data were processed

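The 8 libraries were grouped by their labels. A service provider aligned stranded total RNA reads to GRCz10 and ran Cufflinks, Cuffmerge and Cuffdiff. The methods name FPKM, but by its values the deposited signal is the reads counted per locus divided by a size factor for each library, without division by length. Divided by the step of 1 read, every value checked (up to 10000 reads) lay within 0.1 of a whole number. Gene names fill 42278 of 66128 rows in another order and were not used. Each comparison was fitted in R 4.3.3 with limma 3.58.1 (lmFit, eBayes with trend and robust options, statmod 1.5.0) on log2(value + 1) over 62594 loci in one model of all 20 libraries (18 with 2 controls), with Benjamini-Hochberg adjustment at 0.05. This scale understates the change of low loci. Library measures were compared by exact permutation (numpy 2.4.6).

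Members, lists and tests were chosen with earlier results of these data known. Held loci with a mean of at least 100 and no overlap were named as the 6 largest rises and falls by fold, 5 by value and 3 by statistic. Further loci were named without the rule of no overlap. These were 3 held loci at 0 in each group (of any mean) and the 3 most abundant not called. With a mean of at least 100, 2 failing against each pair and those nearest the threshold were added. Scripts were tested on simulated data. Alternatives were other scalings, a filter (value of at least 10 in at least 4 libraries), pseudocounts of 0.1 and 5, only the 8 libraries, and a replicate block. Others were limma-voom and edgeR 4.0.16 on recovered reads, a fold change of at least 2, and leaving out each library. The plan named edgeR as the main test if the values were whole counts. Whole reads were recovered by undoing the size factors, yet limma on the deposited scale was kept as the main test.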

Additional observations from a re-analysis of the deposited data

Results flagged for a closer look

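In 92 groups of 4 libraries (the loci named in the text, on the log2 scale), 8 had 1 library whose gap to the nearest other, divided by the range of the group, was above Dixon's limit of 0.829, and chance flags about 1 group in 20, here 4.6. That rate is for groups not chosen by their values, while these loci were, so 8 against 4.6 is no test. Non-injured replicate 2 stood apart in 4 of the 8 groups, of which XLOC_025414 and XLOC_012057 rest on at most 7 reads per control. It was the high control of XLOC_025414 (6.91, with a gap of 0.831 of the range) and of XLOC_012057 (1.98, the others at 0, a gap of 1), and the low control of XLOC_062480 (287582, a gap of 0.852) and of XLOC_001274 (228945, a gap of 0.861). Non-injured replicate 1 was the high control of XLOC_013344 (451014, a gap of 0.851), and non-injured replicate 3 that of XLOC_029013 (278, a gap of 0.851). In the injured group, 1.5 dpci replicate 3 was at 0 in XLOC_028312 (a gap of 0.994) and 1.5 dpci replicate 4 was highest in XLOC_059860 (483, a gap of 0.836).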

How the results depend on the processing

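Division by the sum of values, chosen after seeing the data, gave 14488 higher and 3532 lower loci with 6836 and 1567 held. A fold change of at least 2 left 3888 lower loci, 1860 of them held. On recovered reads edgeR found 2243 held rises and 2294 held falls, and limma-voom found 2005 and 2270. Held falls thus outnumbered held rises by both tests, while on the deposited scale limma held 3442 rises and 2947 falls. Of the 3442 held rises reported, 1998 were held again by edgeR and 1807 by limma-voom. Of the 2947 held falls reported, 2138 were held again by edgeR and 2120 by limma-voom. Leaving out 1 library gave 6391 to 8177 higher and 5225 to 6473 lower loci, and 1353 to 3143 held rises and 1126 to 2732 held falls. Leaving out any 1 non-injured library leaves 1 library in its control pair. The held counts were lowest without non-injured replicate 1. They fell by more than 1.5 times without replicate 1 or 3, and by less without replicate 2 or 4. With any 1 of the 8 libraries left out, the difference in summed values was -8065930 to -6134460. That in the share of the 10 most abundant loci was -3.03 to -2.0 percentage points. Both had an exact permutation p of 0.0571 without any one 1.5 dpci library and 0.0286 without any one non-injured library. All other counts stayed within 1.5 times those reported. In the replicate block fit, 7598 loci were higher and 6040 lower, with 2621 and 2355 held. Libraries of the same number correlated at -0.019, -0.125, -0.040 and -0.202 in their deviations from the group means, and libraries of different numbers at -0.123 to 0.193. Deviations from a group mean depend on each other, so these values cannot decide whether replicate numbers pair the samples. Of 47 loci named, none changed direction in the 10 other settings, in which 449 of 470 calls with all 4 controls stayed the same. These calls do not test whether a locus was held. Many of the loci were picked as extreme in these same libraries, so their stability is no support for the other loci. Among all held loci, 1 was held in the opposite direction in any setting, XLOC_011650, with a log2 fold change of -0.74 as reported and 0.44 after quantile normalization. Loci of few reads are limited by depth.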
